A study of Rattus norvegicus with 12 samples.

Results

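The genes of extracellular Wnt signalling were measured in bone taken from around rat dental mini-implants. They were chosen by name from a deposited table of 33801 genes, with earlier results of these data known. Every row named as a Wnt ligand, a Frizzled receptor (Fzd), a secreted Frizzled-related protein (Sfrp) or a Dickkopf protein (Dkk) was taken. Frzb, Wif1, Lrp5, Lrp6, Axin2 and Lef1 were added to these. This gave 41 genes, with 19 ligands, 9 Frizzled receptors, the 2 co-receptors Lrp5 and Lrp6, 9 secreted antagonists, and the 2 intracellular genes Axin2 and Lef1. Dkk1 and Fzd1 were not analysed here.

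The 12 libraries fall into 4 groups of 3, all from wild-type rats with an implant at the site of the upper first molar. The loaded Nb3 group had implants of the zirconium alloy Zr58Cu25Al14Nb3, called Nb3 in the labels, under cyclic loading for 2 weeks, and the non-loaded Nb3 group had the same implants left static. The loaded cpTi and non-loaded cpTi groups had titanium implants under the same 2 conditions. Tissue within a diameter of 4 mm around the implant was taken, and polyadenylated RNA was sequenced. The study asks which genes in bone around the implant change with cyclic loading. The labels name no strain, sex or age. Nor do they state that the 3 libraries of a group came from different rats, so that p-values cover just the spread among these libraries, and that spread may be technical.

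Wnt proteins are secreted lipid-modified ligands that bind Frizzled receptors on nearby cells. With the co-receptors Lrp5 or Lrp6 they stabilise beta-catenin, which enters the nucleus and acts with factors such as Lef1, while other ligands, Wnt5a among them, act mainly without beta-catenin. Secreted antagonists limit this signal by binding the ligands (Sfrp proteins, Frzb and Wif1) or the co-receptors (Dkk1, Dkk2 and Dkk4). In bone the pathway promotes formation by osteoblasts, loss of Lrp5 causes low bone mass, and osteocytes restrain the pathway by secreting sclerostin, the product of Sost.

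Reads assigned to genes numbered 12911912 to 22308428 per library, and those on the 41 genes from 8365 to 44953. The 3 loaded Nb3 libraries stood apart, with correlations across tested genes of 0.731 to 0.866 to the other 9, among which the same measure was 0.932 to 0.969. Mitochondrial transcripts took 11.3% to 24.3% of their reads, against 4.31% to 6.86% in the other 9. All 12 osteoblast markers were detected in every group, with a summed level of 10473 to 25150 FPKM in loaded Nb3 and 4580 to 15052 FPKM in the other 9 libraries. In the loaded Nb3 libraries the summed levels of 9 erythroid markers (3.31 to 21.2 FPKM) and 10 neutrophil markers (89.4 to 229.7 FPKM) lay far under those of the other 9 (1178 to 2434 FPKM and 2538 to 8306 FPKM). The reverse held for 14 genes of connective-tissue cells, Pdgfra and Dcn among them, at 2287 to 2712 FPKM in loaded Nb3 and 434 to 1252 FPKM in the other 9. Also higher in loaded Nb3 were the sums of 7 ligament markers (615 to 1171 FPKM, against 61.9 to 239 FPKM in the other 9), 8 of smooth muscle and pericytes (790.1 to 1160.0 FPKM, against 178 to 419 FPKM) and 9 of endothelium (335 to 593 FPKM, against 108 to 171 FPKM). Postn alone held 826, 1034 and 494 FPKM of the ligament sums in loaded Nb3. Postn, Tnmd, Fmod and Mkx were highest in the 3 loaded Nb3 libraries, while Tnc, Aspn and Scx overlapped with the other 9. Proliferation markers, 10 in number, summed to 26.3 to 28.8 FPKM in loaded Nb3 and 311 to 663 FPKM in the other 9. Except for the osteoblast sum, which overlapped with the other 9, these sums set apart the same loaded Nb3 libraries that are compared below. What part the marker lists have in those results was not tested beyond the scaling to connective-tissue genes given further on. In bulk tissue, fewer cells of a type and less RNA per cell cannot be told apart.

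Promoter windows of 300 bases, 250 before and 50 after the gene start, were matched by symbol for 28 of the 41 genes in RefSeq (build GRCr8). Those of 3 genes are printed, as one gene of each pattern described below: Axin2, a feedback gene that beta-catenin switches on in many tissues and that did not pass the test, Wnt4, a ligand that rose, and Wnt2, a ligand that was nearly lost in loaded Nb3. Capitals mark CTTTGA or its reverse complement TCAAAG, the core bound by Lef1 and its relatives. The strands shown are + for Axin2 and Wnt4 and - for Wnt2, at chr10:94398535-94398834, chr5:154797200-154797499 and chr4:47340235-47340534.
Axin2: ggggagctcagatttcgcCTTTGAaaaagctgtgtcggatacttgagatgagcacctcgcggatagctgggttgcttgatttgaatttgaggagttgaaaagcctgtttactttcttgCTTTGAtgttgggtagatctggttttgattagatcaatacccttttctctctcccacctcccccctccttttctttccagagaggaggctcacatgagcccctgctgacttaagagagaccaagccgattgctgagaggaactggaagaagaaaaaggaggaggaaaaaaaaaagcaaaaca
Wnt4: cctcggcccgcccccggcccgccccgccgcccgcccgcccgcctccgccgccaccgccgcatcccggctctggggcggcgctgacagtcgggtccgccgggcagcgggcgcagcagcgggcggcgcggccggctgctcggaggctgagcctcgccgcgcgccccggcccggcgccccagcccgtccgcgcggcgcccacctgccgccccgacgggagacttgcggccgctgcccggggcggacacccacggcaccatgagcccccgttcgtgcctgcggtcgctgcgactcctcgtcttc
Wnt2: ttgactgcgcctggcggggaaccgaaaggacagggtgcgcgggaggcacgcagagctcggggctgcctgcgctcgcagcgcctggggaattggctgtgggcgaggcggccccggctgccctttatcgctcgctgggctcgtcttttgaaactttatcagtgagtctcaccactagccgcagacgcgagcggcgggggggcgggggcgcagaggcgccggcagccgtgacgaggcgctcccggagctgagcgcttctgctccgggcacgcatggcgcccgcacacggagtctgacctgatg
The core, searched on both strands, stood in 3 of the 28 windows, with 2 copies for Axin2, 3 for Fzd7 and 1 for Wnt8a, against 16.1% of all 33469 windows. G and C made up a median of 66.2% of the 28 windows, with a range of 45.3% to 85.3%, beside a median of 51.7% over all windows. The Wnt4 window held 83.3% G and C, that of Wnt2 70.0%, and that of Axin2 45.7%. A match of letters is a description, and its absence says only that these letters are not in this window.

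Levels are given as FPKM, fragments per kilobase of gene model scaled by depth, which can be compared between genes. Secreted antagonists were the most abundant class, with a summed level of 531 ± 351 FPKM in loaded Nb3 (SD, n = 3), 92.4 ± 17.2 FPKM in non-loaded Nb3, 179 ± 92.7 FPKM in loaded cpTi and 142 ± 54.3 FPKM in non-loaded cpTi. The 19 ligands together reached 64.0 ± 16.5 FPKM in loaded Nb3, 23.7 ± 4.08 FPKM in non-loaded Nb3, 30.2 ± 10.4 FPKM in loaded cpTi and 26.7 ± 11.9 FPKM in non-loaded cpTi. The 9 Frizzled receptors summed to 50.2 ± 5.92 FPKM in loaded Nb3, 27.1 ± 8.24 FPKM in non-loaded Nb3, 32.9 ± 3.90 FPKM in loaded cpTi and 26.2 ± 3.09 FPKM in non-loaded cpTi. Summed ligands of the loaded Nb3 libraries (47.2 to 80.3 FPKM) and summed receptors (43.8 to 55.4 FPKM) lay above every other library, while summed antagonists (178.7 to 879.9 FPKM) overlapped with both cpTi groups.

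The leading ligand differed between materials in mean level. Wnt5b stood first in both Nb3 groups, and Wnt11 in both cpTi groups. Wnt10b, a ligand that favours bone over fat formation in mice, was among the leading 3 in every group but loaded Nb3, where its 5.05 FPKM ranked it below Wnt5a, Wnt11, Wnt4 and Wnt9a. Among antagonists, Wif1 or Sfrp2 led in all 4 groups. Among Frizzled receptors Fzd5 led in 3 groups, and in loaded Nb3 it stood behind Fzd4, Fzd2, Fzd6, Fzd8 and Fzd7. These ranks are of means alone, and no test of neighbouring ranks was made.

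Testing required 1 FPKM or more in 3 or more libraries, a level that 31 of the 41 met: 11 ligands, 8 Frizzled receptors, both co-receptors, 8 antagonists and both intracellular genes. Of these 31, 5 (Wnt6, Wnt1, Wnt10a, Fzd9 and Dkk2) would not have passed on the 9 libraries outside loaded Nb3. The 10 untested genes were Wnt3, Wnt3a, Wnt7a, Wnt7b, Wnt8a, Wnt8b, Wnt9b, Wnt16, Fzd10 and Dkk4. Wnt3a and Wnt8a had 0 reads in all 12 libraries, which allows at most 0.0807 and 0.132 FPKM in any library (3 reads, counting error only), and Wnt3 and Wnt8b had 1 read each over all 12.

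Loading beside the Nb3 alloy came with higher levels of 6 of the 11 tested ligands, 6 of the 8 tested antagonists and 4 of the 8 tested Frizzled receptors, and with lower Wnt2 and Lef1. Of the 31 tested genes 16 rose (51.6%), while 20.7% of all 15268 tested genes rose. Wnt2 and Lef1 fell (6.45%), while 25.2% of all tested genes fell, so that 45.8% of all genes were called. The median log2 difference was 0.95 over the 31 and -0.02 over all tested genes. Among the 26 that would also have passed on the other 9 libraries, 13 rose and 2 fell. The share of all genes under that condition was not counted. The test was limma on log2(FPKM + 1), with p-values adjusted over all tested genes by the method of Benjamini and Hochberg and a call at an adjusted p under 0.05. Differences on this scale understate the change of genes with low values.

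**Figure D1:**
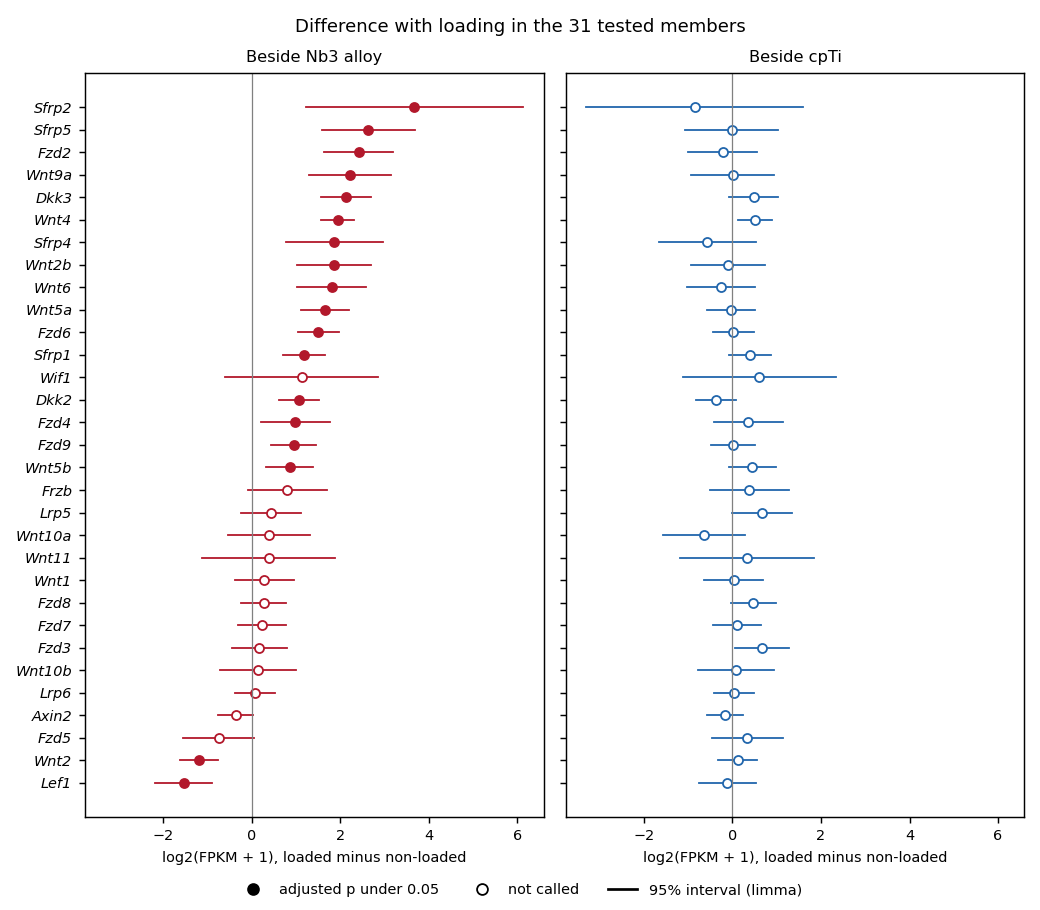
Difference between loaded and non-loaded libraries of each material on the log2(FPKM + 1) scale, for the 31 tested genes ordered by the difference beside Nb3. Circles are limma estimates with 95% intervals, filled where the adjusted p was under 0.05; beside Nb3 16 genes lie to the right and 2 to the left with filled circles, and beside cpTi all circles are open. Scaled to connective-tissue genes, the open circles Fzd3, Fzd7, Fzd8, Frzb, Lrp5, Lrp6, Wif1, Wnt1, Wnt10a, Wnt10b and Wnt11 and the filled Fzd4, Sfrp1 and Wnt5b beside Nb3 take negative values.

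Of the ligands, 6 rose and 1 fell among the 11 tested (54.5% and 9.09%, beside 20.7% and 25.2% of all tested genes). Wnt6, which rose, and Wnt1 and Wnt10a, not called, would not have passed the filter on the libraries outside loaded Nb3. Library values below are in the order of replicates 1 to 3. Wnt4, which acts in several developing organs, stood at 7.18, 8.32 and 7.26 FPKM in loaded Nb3, against 1.69, 1.29 and 0.815 FPKM in non-loaded Nb3. The cpTi libraries held 2.22, 2.89 and 2.98 FPKM when loaded and 1.40, 1.52 and 1.88 FPKM when not. The 3 loaded Nb3 libraries were close to each other and above all other 9, and the difference with loading was 5.99-fold in means (log2 difference 1.94, SE 0.17, adjusted p = 1.02e-05), the smallest p among the 31 genes.

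Wnt5a, the best studied ligand that acts without beta-catenin, was at 11.3, 7.60 and 6.16 FPKM in loaded Nb3 and 2.09, 1.73 and 1.89 FPKM in non-loaded Nb3. Its other values were 1.8, 3.20 and 3.23 FPKM in loaded cpTi and 1.86, 3.72 and 2.87 FPKM in non-loaded cpTi, so that loaded Nb3 lay above all other libraries (log2 difference 1.65, SE 0.25, adjusted p = 0.000336). Wnt5b, its close paralog, had 20.7, 9.33 and 12.7 FPKM in loaded Nb3, against 8.37, 6.52 and 6.36 FPKM in non-loaded Nb3. With 5.72, 7.75 and 4.89 FPKM in loaded cpTi and 4.33, 4.24 and 3.89 FPKM in non-loaded cpTi, the groups beside Nb3 did not overlap but came close. It rose by 0.86 (SE 0.24, adjusted p = 0.0137), and fell by 0.80 when scaled to connective-tissue genes (adjusted p = 0.0172). Scaled by total reads its difference was 0.69 (adjusted p = 0.0645), and in a fit of the Nb3 groups alone the adjusted p was 0.0504.

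Wnt9a, a ligand of joints and cartilage, was at 9.92, 6.35 and 5.75 FPKM in loaded Nb3 and 0.621, 0.859 and 0.789 FPKM in non-loaded Nb3. Its cpTi values of 0.449, 3.30 and 3.61 FPKM with loading and 1.43, 3.85 and 1.42 FPKM without all lay below those of loaded Nb3, with low and high libraries in both groups. It rose 9.71-fold in means (log2 difference 2.22, SE 0.42, adjusted p = 0.00153). Wnt2b, a close relative of Wnt2, had 5.01, 6.96 and 2.03 FPKM in loaded Nb3, against 0.661, 0.385 and 0.328 FPKM in non-loaded Nb3. It stood at 0.141, 1.22 and 1.02 FPKM in loaded cpTi and 0.460, 1.69 and 0.624 FPKM in non-loaded cpTi, and every loaded Nb3 library exceeded every other (log2 difference 1.86, SE 0.38, adjusted p = 0.00231).

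Wnt6 was at 4.76, 2.09 and 3.02 FPKM in loaded Nb3, against 0.0628, 0.340 and 0.173 FPKM in non-loaded Nb3, where it was hardly detected with 19 reads over 3 libraries. Loaded cpTi held 0.416, 1.08 and 0.550 FPKM and non-loaded cpTi 0.616, 2.52 and 0.361 FPKM, where replicate 2 overlapped with loaded Nb3. The difference with loading beside Nb3 was 1.81 (SE 0.35, adjusted p = 0.00171). Wnt10a, the next gene on chromosome 9, 6.41 kb away in the deposited positions, was not called (mean 1.18 ± 0.603 FPKM in loaded Nb3 and 0.620 ± 0.153 FPKM in non-loaded Nb3, adjusted p = 0.472). Its highest value, 3.68 FPKM, came from the same non-loaded cpTi library, replicate 2, that held the highest Wnt6 outside loaded Nb3.

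Wnt2, a ligand known from lung and vessel development, moved the other way. It was at 0.0694, 0 and 0.0661 FPKM in loaded Nb3, or 4 reads over the 3 libraries, against 1.19, 1.54 and 1.43 FPKM and 113 reads in non-loaded Nb3. Both cpTi groups kept it, at 1.76, 1.49 and 2.16 FPKM in loaded and 1.67, 2.17 and 1.01 FPKM in non-loaded libraries. The fall beside Nb3 was called (log2 difference -1.19, SE 0.20, adjusted p = 0.000657) and held under every setting tried. One of these, scaling to connective-tissue genes (-1.70), lowers loaded against non-loaded Nb3 for every gene, so it cannot test a fall.

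The other tested ligands did not pass the test. Wnt11, which acts in cell movement and bone formation, ranged widely, with 8.05, 1.16 and 15.7 FPKM in loaded Nb3 and 3.84, 5.33 and 3.78 FPKM in non-loaded Nb3. It held 2.94, 10.6 and 9.56 FPKM in loaded cpTi and 2.95, 10.7 and 4.28 FPKM in non-loaded cpTi, and loaded Nb3 replicate 2 was the lowest of all 12 while replicate 3 was the highest. Its log2 difference beside Nb3 was 0.39 with a 95% interval of -1.12 to 1.89, which includes both a fall and a rise. Wnt10b averaged 5.05 ± 2.56 FPKM in loaded Nb3 and 4.35 ± 2.06 FPKM in non-loaded Nb3 (95% interval -0.72 to 1.0), and 4.30 ± 1.34 and 4.02 ± 1.57 FPKM in loaded and non-loaded cpTi. Wnt1, mutated in a brittle bone disease and 10.7 kb from Wnt10b on chromosome 7, averaged 0.954 ± 0.499 FPKM in loaded Nb3 and 0.615 ± 0.486 FPKM in non-loaded Nb3 (adjusted p = 0.458), and 0.296 ± 0.274 and 0.265 ± 0.231 FPKM in loaded and non-loaded cpTi.

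**Figure D2:**
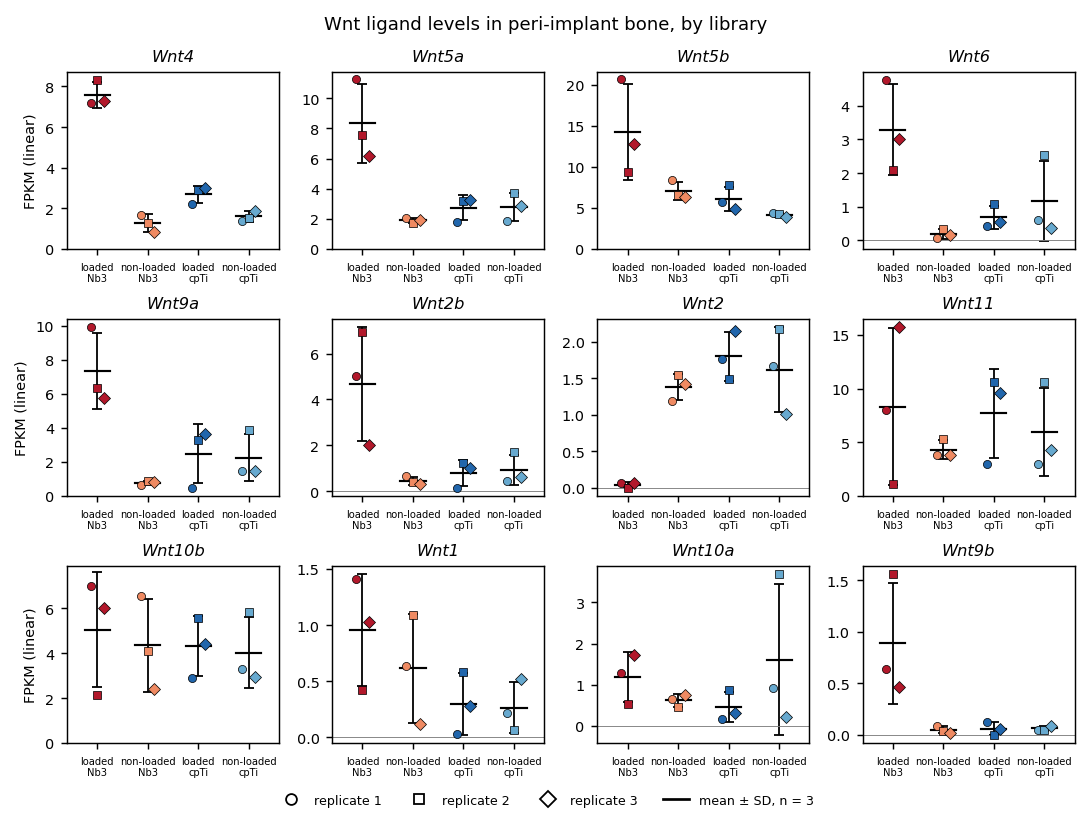
FPKM of the 11 tested ligands and of Wnt9b in each library (linear axes that differ between panels); points are libraries, bars the mean ± SD of 3. Wnt4, Wnt5a, Wnt9a and Wnt2b are higher in every loaded Nb3 library than in the other 9, Wnt2 is near 0 in loaded Nb3, and Wnt11 and Wnt10b spread within groups.

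Among the untested ligands, a few had their highest values in loaded Nb3. Wnt9b, a ligand of epithelia, was at 0.637, 1.56 and 0.458 FPKM in loaded Nb3, and from 0 to 0.123 FPKM in the other 9 libraries. With no filter on low values it was called beside Nb3 (log2 difference 0.81, adjusted p = 0.00604), as were 12.9% of all genes on the higher side. Wnt16, which limits loss of cortical bone in mice, averaged 1.45 ± 1.37 FPKM in loaded Nb3 and 0.619 ± 0.588 FPKM in non-loaded Nb3, and 0.10 ± 0.0758 and 0.110 ± 0.153 FPKM in loaded and non-loaded cpTi. Wnt7b, which drives bone formation in mice, averaged 0.557 ± 0.764 FPKM in loaded Nb3 and 0.0591 ± 0.050 FPKM in non-loaded Nb3 (0.0261 ± 0.0452 and 0.141 ± 0.188 FPKM in loaded and non-loaded cpTi), with 1.43 FPKM in loaded Nb3 replicate 3 as its only value over 1. Wnt7a had reads in 3 libraries, with 0.220 FPKM in loaded Nb3 replicate 3 as its highest value. Loaded Nb3 replicate 2 held the highest Wnt9b (1.56 FPKM) and also the highest Fzd10 (1.68 FPKM, against at most 0.512 FPKM in the other libraries). The summed level of 11 epithelial markers in that library was 102.8 FPKM, with Krt5, a keratin of basal epithelium, at 51.1 FPKM, while it was 5.80 and 23.0 FPKM in loaded Nb3 replicates 1 and 3 and 16.4 to 45.0 FPKM in the other 9. Of the 11 markers 6 had their highest value in that library (Krt5, Krt15, Krt17, Odam, Dsp and Evpl), and the others did not, Cdh1 standing at 3.85 FPKM there and 9.77 to 16.6 FPKM in the other 9. What part these markers have in the Wnt9b and Fzd10 values was not tested.

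Of the 8 tested Frizzled receptors 4 rose beside loaded Nb3 (50%, beside 20.7% of all tested genes) and 0 fell (beside 25.2%), and the co-receptors were not called. Among those 4, Fzd9 would not have passed the filter on the libraries outside loaded Nb3. Fzd2, a receptor for several ligands including Wnt5a, was at 10.5, 16.8 and 5.08 FPKM in loaded Nb3 and 1.15, 0.993 and 0.924 FPKM in non-loaded Nb3. Its 1.21, 2.64 and 2.89 FPKM in loaded cpTi and 2.12, 3.79 and 2.30 FPKM in non-loaded cpTi put every loaded Nb3 library on top, 10.6-fold above non-loaded Nb3 in means (log2 difference 2.41, SE 0.35, adjusted p = 0.000291). Fzd6, a receptor of cell polarity, had 6.42, 9.12 and 5.77 FPKM in loaded Nb3, against 2.11, 2.23 and 1.22 FPKM in non-loaded Nb3. Both cpTi groups stayed at the lower level, at 1.85, 2.77 and 2.01 FPKM when loaded and 2.16, 2.57 and 1.76 FPKM when not (log2 difference 1.5, SE 0.21, adjusted p = 0.000219).

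Fzd9, a receptor needed for normal bone formation in mice, was low throughout, at 1.41, 1.32 and 2.09 FPKM in loaded Nb3 and 0.420, 0.304 and 0.308 FPKM in non-loaded Nb3. It held 0.463, 1.04 and 0.387 FPKM in loaded cpTi and 0.302, 0.579 and 0.936 FPKM in non-loaded cpTi, with every loaded Nb3 library above the other 9 (log2 difference 0.95, SE 0.23, adjusted p = 0.00570). Fzd4, the receptor of retinal vessel growth, was at 6.04, 12 and 18.8 FPKM in loaded Nb3 and 8.47, 4.08 and 3.84 FPKM in non-loaded Nb3, with overlapping groups. In cpTi it was at 8.24, 7.48 and 6.12 FPKM with loading and 5.40, 4.48 and 6.47 FPKM without. Its rise was just called (log2 difference 0.99, SE 0.35, adjusted p = 0.0385), and it turned to -0.62 (adjusted p = 0.0908) when scaled to connective-tissue genes. The call of Fzd4 was lost when any 1 of loaded Nb3 replicates 2 or 3, non-loaded Nb3 replicates 2 or 3, loaded cpTi replicate 2 or non-loaded cpTi replicate 1 was left out (log2 differences 0.64 to 0.99, adjusted p from 0.0511 to 0.140). It was also lost with scaling by total reads (0.82, adjusted p = 0.0776), with no filter (adjusted p = 0.0660), and in a fit of the Nb3 groups alone (adjusted p = 0.114).

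Fzd5, a receptor needed for vessel growth in the mouse placenta, was at 5.15, 1.59 and 8.07 FPKM in loaded Nb3 and 10.6, 6.14 and 7.20 FPKM in non-loaded Nb3. It stood at 9.94, 8.01 and 8.16 FPKM in loaded cpTi and 6.29, 6.29 and 7.36 FPKM in non-loaded cpTi, and the 1.59 FPKM of loaded Nb3 replicate 2 was the lowest of the 12 values. It was not called (log2 difference -0.75, SE 0.36, adjusted p = 0.117), but was lower without loaded Nb3 replicate 3 (log2 difference -1.14, adjusted p = 0.0160). Fzd3, Fzd7 and Fzd8 had group means between 1.19 and 5.33 FPKM in all 4 groups and were not called beside Nb3, with log2 differences of 0.18, 0.22 and 0.27.

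Lrp5, the co-receptor whose mutations alter human bone mass, was at 22.6, 15.2 and 33.6 FPKM in loaded Nb3 and 25.1, 15.4 and 11.4 FPKM in non-loaded Nb3. It had 23.0, 26.6 and 18.0 FPKM in loaded cpTi and 12.2, 12.1 and 17.2 FPKM in non-loaded cpTi. Beside Nb3 the groups overlapped (log2 difference 0.44, SE 0.31, adjusted p = 0.274, 95% interval -0.25 to 1.12). Lrp6, its more widely needed relative, stood at 7.91, 9.53 and 13.1 FPKM in loaded Nb3 and 11.0, 8.0 and 9.41 FPKM in non-loaded Nb3. With 8.10, 13.3 and 9.74 FPKM in loaded cpTi and 9.75, 8.78 and 11.3 FPKM in non-loaded cpTi, all 4 groups overlapped, and the interval beside Nb3 ran from -0.37 to 0.53 around 0.08.

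Secreted antagonists made up the class with the highest share of calls with the deposited FPKM. Of the 8 tested, 6 rose (75%, beside 20.7% of all tested genes) and 0 fell (beside 25.2%). Among those 6, Dkk2 would not have passed the filter on the 9 libraries outside loaded Nb3. Scaled to connective-tissue genes, Sfrp5 alone of the 8 was called (1.39). Sfrp2, made by stromal and healing tissue, was at 610.1, 53.7 and 163 FPKM in loaded Nb3 and 9.71, 17.5 and 12.3 FPKM in non-loaded Nb3. It also spread widely in loaded cpTi (3.47, 35.5 and 134 FPKM) and stood at 41.0, 72.0 and 40.8 FPKM in non-loaded cpTi. The groups beside Nb3 did not overlap, and its log2 difference of 3.68 was the highest of the 31 with the widest error (SE 1.11, adjusted p = 0.0195). The call was lost without loaded Nb3 replicate 1 (2.78, adjusted p = 0.0688) and without non-loaded Nb3 replicate 1 (3.49, adjusted p = 0.0543).

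Sfrp5, an antagonist studied in fat tissue, was at 3.87, 10.3 and 13.8 FPKM in loaded Nb3 and 0.293, 0.824 and 0.430 FPKM in non-loaded Nb3, 18.0-fold apart in means. The cpTi libraries, at 1.91, 3.58 and 0.871 FPKM when loaded and 1.5, 4.38 and 0.919 FPKM when not, lay above all of non-loaded Nb3, and 1 of them exceeded the lowest loaded Nb3 library (log2 difference 2.64, SE 0.48, adjusted p = 0.00113). Sfrp4, whose loss thins cortical bone, was at 34.7, 13 and 28.0 FPKM in loaded Nb3 and 5.23, 4.21 and 8.36 FPKM in non-loaded Nb3. It held 3.76, 7.04 and 11.1 FPKM in loaded cpTi and 4.71, 18.4 and 12.8 FPKM in non-loaded cpTi, and the non-loaded cpTi libraries overlapped with both Nb3 groups, which were themselves apart (log2 difference 1.86, SE 0.50, adjusted p = 0.0104). Sfrp1, an inhibitor of bone formation in mice, was at 48.0, 36.8 and 64.3 FPKM in loaded Nb3 and 18.0, 23.5 and 21.3 FPKM in non-loaded Nb3. With 22.0, 34.3 and 34.8 FPKM in loaded cpTi and 22.0, 21.4 and 24.1 FPKM in non-loaded cpTi, loaded Nb3 was highest throughout. Its rise (log2 difference 1.18, SE 0.22, adjusted p = 0.00116) turned to -0.61 (adjusted p = 0.0893) when scaled to connective-tissue genes.

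Dkk3, a Dickkopf relative that does not bind the co-receptors in the way Dkk1 does, had 28.7, 38.4 and 34.3 FPKM in loaded Nb3, against 7.93, 5.41 and 7.63 FPKM in non-loaded Nb3. Loaded cpTi stood at 9.89, 16.1 and 14.5 FPKM and non-loaded cpTi at 5.96, 12.4 and 10.3 FPKM, so the loaded Nb3 libraries were the top 3 of the 12 (log2 difference 2.13, SE 0.25, adjusted p = 7.78e-05). Dkk2, which blocks Lrp6 and is needed for late mineralisation in mice, was at 1.34, 1.2 and 1.85 FPKM in loaded Nb3 and 0.399, 0.0379 and 0.0923 FPKM in non-loaded Nb3. It held 0.371, 0.462 and 0.213 FPKM in loaded cpTi and 0.720, 0.964 and 0.527 FPKM in non-loaded cpTi, so that loaded Nb3 lay above all other libraries (log2 difference 1.07, SE 0.21, adjusted p = 0.00162). Dkk4 was close to 0 in all groups, with means of 0.157 ± 0.144 FPKM in loaded Nb3, 0.180 ± 0.118 FPKM in non-loaded Nb3, 0.0688 ± 0.0868 FPKM in loaded cpTi and 0.0641 ± 0.0771 FPKM in non-loaded cpTi.

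Wif1, a ligand-binding antagonist of cartilage and maturing osteoblasts, was abundant but variable, at 149.6, 22.8 and 228 FPKM in loaded Nb3 and 38.8, 60.2 and 31.5 FPKM in non-loaded Nb3. It was at 31.2, 114 and 53.7 FPKM in loaded cpTi and 23.3, 73.2 and 30.6 FPKM in non-loaded cpTi. Loaded Nb3 replicate 2 held the lowest of all 12 values and replicates 1 and 3 the highest, and Wif1 was not called beside Nb3 (log2 difference 1.13, SE 0.78, adjusted p = 0.264) except without that replicate (log2 difference 2.11, adjusted p = 0.0132). The same replicate had the lowest Wnt11 and Fzd5, and a summed level of 7 osteocyte markers of 676 FPKM, against up to 2628 FPKM in its group. The osteocyte sum was lower still in non-loaded cpTi replicates 1 and 2, at 529 and 331 FPKM. Wif1 stood at 23.3 and 73.2 FPKM in those libraries, and Wnt11 at 2.95 and 10.7 FPKM. What part these markers or the mitochondrial share have in the Wif1 values was not tested. Frzb, a ligand-binding antagonist of cartilage, averaged 2.30 ± 1.08 FPKM in loaded Nb3 and 1.01 ± 1.18 FPKM in non-loaded Nb3 (adjusted p = 0.126), and 1.63 ± 0.251 and 1.14 ± 0.897 FPKM in loaded and non-loaded cpTi. Among all settings it rose only without non-loaded Nb3 replicate 1 (log2 difference 1.25, adjusted p = 0.0178).

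Lef1, the nuclear partner of beta-catenin that is also needed by early B and T cells, was at 1.32, 2.14 and 0.862 FPKM in loaded Nb3, against 4.21, 8.89 and 5.45 FPKM in non-loaded Nb3. Both cpTi groups held it at the higher level, 8.23, 4.16 and 6.46 FPKM with loading and 7.10, 5.10 and 8.09 FPKM without, so that all 3 loaded Nb3 libraries lay below the other 9 (log2 difference -1.54, SE 0.29, adjusted p = 0.00156). The summed level of 11 B lineage markers, with none at 0 in all 3 libraries of any group, was 65.8 to 86.0 FPKM in loaded Nb3 and 229.7 to 636 FPKM in the other 9. Rag1, needed by B and T cell precursors to rearrange their receptors, was at 0.451, 0.543 and 0.197 FPKM in loaded Nb3 and 9.92 to 30.1 FPKM in the other 9. The summed level of 8 T cell markers was 44.8 to 70.9 FPKM in loaded Nb3 and 15.5 to 39.1 FPKM in the other 9. Cd2 made up much of this difference, at 25.8, 16.3 and 31 FPKM in loaded Nb3 and 1.48 to 7.52 FPKM in the other 9. Without Cd2 the sum was 42.2, 54.6 and 13.8 FPKM in loaded Nb3 and 14 to 33.5 FPKM in the other 9, with replicates 1 and 2 above those 9 and replicate 3 below them. What part these lymphocyte markers have in the fall of Lef1 was not tested. Axin2, the feedback gene shown above, averaged 1.74 ± 0.492 FPKM in loaded Nb3 and 2.55 ± 0.780 FPKM in non-loaded Nb3, and 2.26 ± 0.127 and 2.65 ± 0.169 FPKM in loaded and non-loaded cpTi. It was not called (log2 difference -0.36, SE 0.18, adjusted p = 0.128), with a 95% interval of -0.77 to 0.04 whose upper end lies close to 0.

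**Figure D3:**
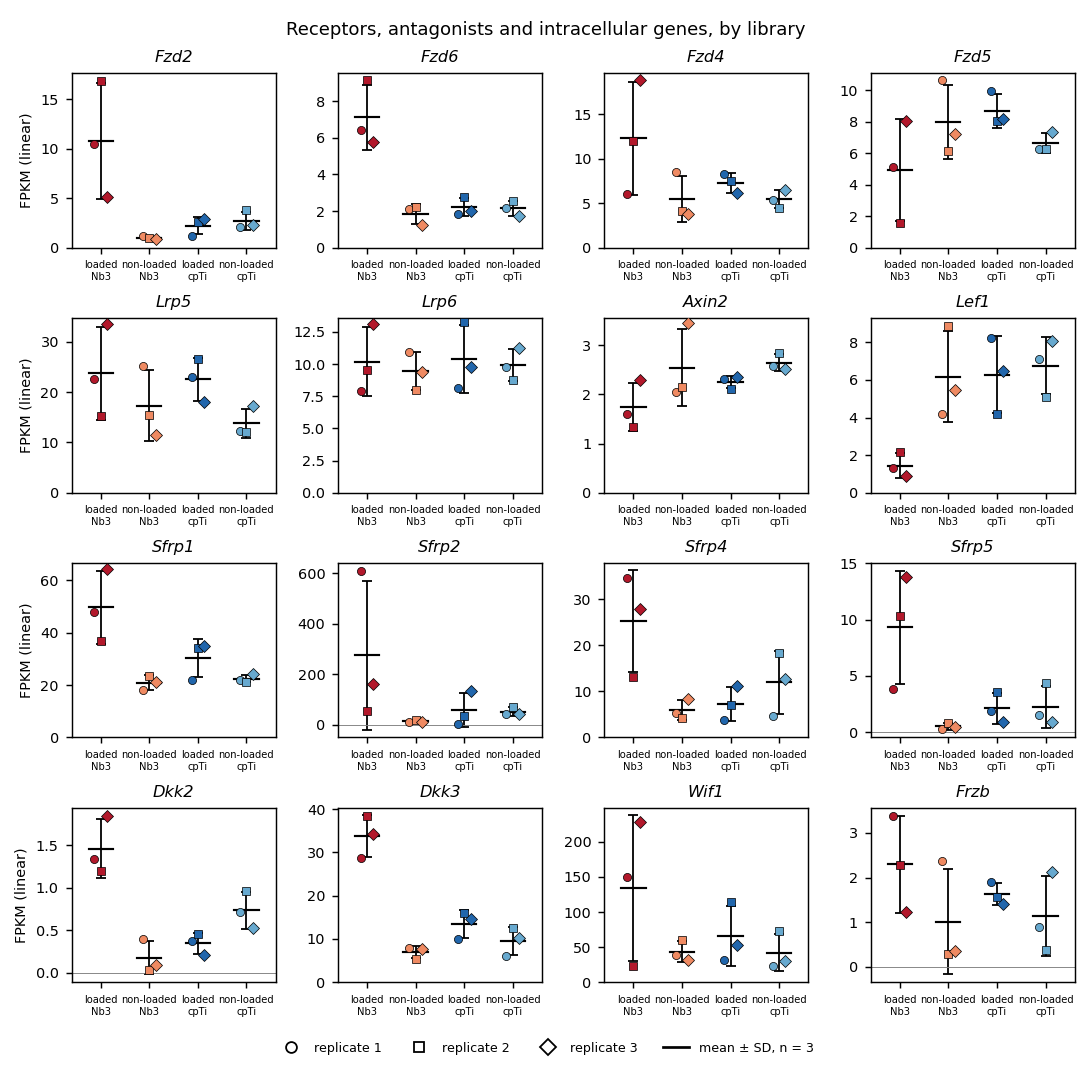
FPKM of Frizzled receptors, co-receptors, Axin2, Lef1 and antagonists in each library (linear axes that differ between panels); points are libraries, bars the mean ± SD of 3. Fzd2, Fzd6 and Dkk3 are highest in all 3 loaded Nb3 libraries, Lef1 is lowest in them, and Sfrp2, Wif1 and Fzd5 differ widely between replicates of loaded Nb3.

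Because connective-tissue transcripts as a whole were higher in loaded Nb3, the comparison was repeated with each library scaled to the same mean level of the 14 connective-tissue genes. This scaling moved the median of all tested genes beside Nb3 by -1.48, to -1.5, and the median of the 31 genes to -0.40. On this scale Wnt4 (0.57), Wnt2b (0.79), Wnt6 (0.89), Wnt9a (0.92), Fzd2 (1.03) and Sfrp5 (1.39) rose, 6 of 31, while 1.45% of all tested genes did. The 11 genes that fell, while 79.4% of all tested genes fell, were Lef1 (-2.73), Fzd5 (-2.19), Wnt2 (-1.70), Lrp6 (-1.57), Axin2 (-1.53), Lrp5 (-1.31), Wnt10b (-1.27), Fzd7 (-1.25), Fzd8 (-1.21), Fzd3 (-0.96) and Wnt5b (-0.80). Wnt5a (0.19), Dkk3 (0.40), Dkk2 (0.43), Fzd6 (0.07), Fzd9 (0.15), Sfrp4 (0.17) and Sfrp2 (1.88) stayed above 0 without passing the test. Of the 18 calls beside Nb3, 8 held under every setting tried: Wnt2, Wnt2b, Wnt4, Wnt6, Wnt9a, Fzd2, Sfrp5 and Lef1. Among these 8, Wnt6 would not have passed the filter on the 9 libraries outside loaded Nb3. For Wnt2 and Lef1, which fell, the scaling could only lower the difference, so it cannot test their calls.

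**Figure D4:**
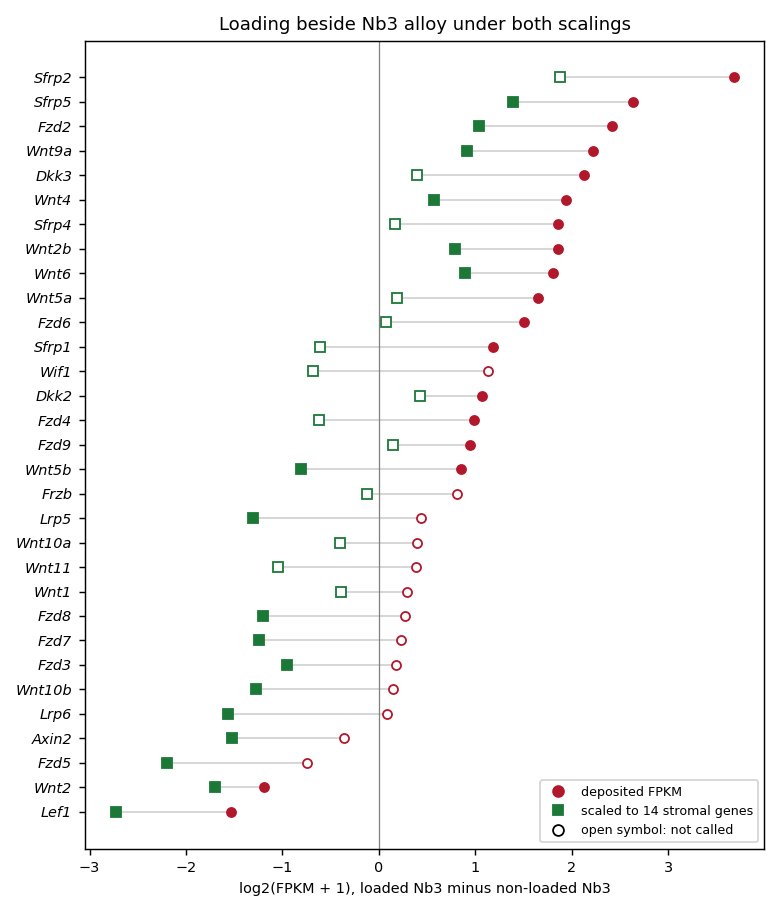
Log2 difference of the 31 tested genes, loaded minus non-loaded Nb3, with the deposited FPKM (circles) and after scaling each library to 14 connective-tissue genes (squares); filled symbols passed an adjusted p under 0.05. After scaling 6 genes remain called higher and 11 are called lower, and Fzd4, Sfrp1 and Wnt5b change sign among those called with the deposited FPKM.

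Other genes of the pathway, from carriers of the ligands to intracellular inhibitors, also changed beside loaded Nb3. Of 45 further pathway genes, 40 were tested, of which 15 rose (37.5%, beside 20.7% of all tested genes) and 2 (5%, beside 25.2%) fell, Axin1 and Gsk3a, parts of the complex that degrades beta-catenin (-0.37 and -0.60). These 2 are named because they were the only ones to fall, after their values were seen. Their median difference was 0.45, beside -0.02 over all genes. Wls, which carries Wnt ligands to the cell surface, was at 19.5, 25.5 and 21.2 FPKM in loaded Nb3 and 11.6, 8.45 and 8.56 FPKM in non-loaded Nb3 (log2 difference 1.13, SE 0.18, adjusted p = 0.000448). Ctnnbip1, an inhibitor of beta-catenin, was at 8.44, 12.7 and 7.91 FPKM in loaded Nb3 and 3.66, 3.35 and 2.98 FPKM in non-loaded Nb3 (log2 difference 1.28, SE 0.18, adjusted p = 0.000256). In both genes the groups were apart, with all loaded libraries on top, but both differences turned to -0.59 and -0.28 when scaled to connective-tissue genes.

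Sostdc1, a secreted antagonist active in tooth development, was at 3.78, 9.72 and 3.87 FPKM in loaded Nb3 and 0.388, 0.842 and 0.341 FPKM in non-loaded Nb3 (log2 difference 2.06, SE 0.33, adjusted p = 0.000508), again with the groups apart. The Dickkopf receptor Kremen1 (1.74), the cell polarity gene Prickle1 (1.65) and the feedback inhibitor Nkd2 (1.35) also rose. With that scaling none of these 3 was called, at 0.15 for Kremen1, 0.02 for Prickle1 and -0.35 for Nkd2. Ctnnb1, the gene of beta-catenin itself, was at 290.5, 202 and 446 FPKM in loaded Nb3 and 237, 169 and 145 FPKM in non-loaded Nb3, and was not called (log2 difference 0.72, SE 0.29, adjusted p = 0.0655). Without loaded Nb3 replicate 2 or non-loaded Nb3 replicate 1 it was called higher (log2 differences 0.92 to 1.0, adjusted p from 0.0147 to 0.0348), and with the connective-tissue scaling lower (-1.13, adjusted p = 0.00985). Sost was at 1044, 184 and 624 FPKM in loaded Nb3 and 947, 1143 and 295 FPKM in non-loaded Nb3, with overlapping groups and a 95% interval of -2.10 to 1.16 around -0.47. Rspo3, a secreted enhancer of Wnt signalling, averaged 0.527 ± 0.308 FPKM in loaded Nb3 and 1.33 ± 0.445 FPKM in non-loaded Nb3 (adjusted p = 0.0637), and was called lower without non-loaded Nb3 replicate 2 (log2 difference -0.78, adjusted p = 0.0377).

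Of 16 genes listed as targets of the pathway in other tissues, 12 were tested, and 5 rose (41.7%, beside 20.7% of all tested genes) while 0 fell (beside 25.2%) beside Nb3, with a median of 0.59. This list leaves out Axin2 (log2 difference -0.36, not called) and Lef1 (-1.54, called lower), which were counted above. Some of its genes are also in the list of further pathway genes. Msx1, a homeobox gene of jaw and tooth, was at 41.0, 35.2 and 35.8 FPKM in loaded Nb3 and 9.55, 7.48 and 6.13 FPKM in non-loaded Nb3, with the groups far apart (log2 difference 2.15, SE 0.34, adjusted p = 0.000453). The others were the cyclin gene Ccnd1 (1.54), the mesenchymal factor Twist1 (1.41), Tcf7 (0.92), a relative of Lef1, and Ccn5 (1.82). Scaled to connective-tissue genes, Ccnd1 (-0.17), Twist1 (-0.34) and Tcf7 (-0.70) turned negative, and Msx1 (0.41, adjusted p = 0.191) and Ccn5 (0.03, adjusted p = 0.957) lost their calls. The call of Ccn5 was lost without loaded Nb3 replicate 2 or non-loaded Nb3 replicate 2 (log2 differences 1.62 to 1.63, adjusted p from 0.0515 to 0.0530). Most of these genes are also controlled by other pathways.

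Loading beside titanium gave no call among the 31 genes. In limma 0 of 31 passed, beside 0.00655% of all tested genes, and limma-voom on recovered reads also called 0. At an unadjusted p under 0.05 there were 2, or 6.45%, beside 6.96% of all genes. These were Wnt4 (2.22, 2.89 and 2.98 FPKM in loaded cpTi and 1.40, 1.52 and 1.88 FPKM in non-loaded cpTi, log2 difference 0.50, 95% interval 0.12 to 0.89, adjusted p = 0.666) and Fzd3 (2.01, 3.43 and 2.09 FPKM in loaded cpTi and 0.959, 1.12 and 1.5 FPKM in non-loaded cpTi, log2 difference 0.66, adjusted p = 0.691). The median difference was 0.04 over the 31 and -0.03 over all genes. The 95% intervals of single genes had a median half-width of 0.66 on the log2 scale. Of the further pathway genes 0 of 40 were called beside cpTi, and of the targets 0 of 12. At an unadjusted p under 0.05 there were 3 of the 40 (7.5%) and 3 of the 12 (25%), beside 6.96% of all genes. The highest log2 difference among the targets was 1.31. For Lrp5 the interval was -0.02 to 1.35, for Sfrp1 -0.08 to 0.86, for Lef1 -0.76 to 0.54 and for Axin2 -0.57 to 0.24.

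Under loading, 6 of the 11 tested ligands, 3 Frizzled receptors and 5 antagonists stood higher in bone beside Nb3 than beside cpTi, while Wnt2 and Lef1 stood lower. Its loaded Nb3 libraries are those of the comparison of loading beside Nb3, and its loaded cpTi libraries those of loading beside cpTi. In loaded Nb3 against loaded cpTi, 14 of 31 were higher (45.2%, beside 14.7% of all tested genes) and 2 were lower (6.45%, beside 18.9%), and 33.6% of all genes were called. Among the 26 that would also have passed on the other 9 libraries, 11 were higher and 2 lower. The share of all genes under that condition was not counted. The median was 0.67, and -0.01 over all genes. The higher ones were Wnt4 (1.22, SE 0.17, adjusted p = 0.000434), Wnt5a (1.31), Wnt5b (1.05), Wnt6 (1.32), Wnt9a (1.41), Wnt2b (1.61), Fzd2 (1.77), Fzd6 (1.32), Fzd9 (0.69), Dkk2 (0.86), Dkk3 (1.28), Sfrp1 (0.69), Sfrp4 (1.66) and Sfrp5 (1.68). Wnt2 (-1.42, SE 0.20, adjusted p = 0.000393) and Lef1 (-1.57, SE 0.29, adjusted p = 0.00234) were lower. Sfrp1 turned to -0.38 when scaled to connective-tissue genes, a scaling under which Wnt2b and Fzd2 were the only 2 called higher (1.3% of all genes) and 8 were called lower (56.1% of all genes). Fzd4 (0.57, adjusted p = 0.237) and Sfrp2 (2.65, adjusted p = 0.0889) were not called.

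Several of these calls rested on single libraries or on other settings. Without loaded cpTi replicate 1, 8 genes were called higher rather than 14. The genes whose call changed with 1 library were Wnt6 (without loaded Nb3 replicate 1 or loaded cpTi replicate 1, log2 differences 1.09 to 1.21, adjusted p from 0.0561 to 0.0570) and Wnt9a (without loaded Nb3 replicate 1 or loaded cpTi replicate 1, log2 differences 0.87 to 1.2, adjusted p from 0.0720 to 0.0866). For Sfrp1 it was lost without any 1 of loaded Nb3 replicates 1 or 3 or loaded cpTi replicate 1 (log2 differences 0.48 to 0.69, adjusted p from 0.0672 to 0.125). For Sfrp4 this held for loaded Nb3 replicates 1 or 3 or loaded cpTi replicates 1 or 2 (log2 differences 1.30 to 1.68, adjusted p from 0.0533 to 0.102), for Sfrp5 for loaded Nb3 replicates 2 or 3 or loaded cpTi replicates 1 or 3 (log2 differences 1.34 to 1.67, adjusted p from 0.0549 to 0.0827), and for Fzd9 for loaded Nb3 replicates 1 or 3 or loaded cpTi replicates 1 or 3 (log2 differences 0.56 to 0.74, adjusted p from 0.0616 to 0.129). Scaling by total reads also ended the calls of Fzd9 (adjusted p = 0.0899), Sfrp1 (0.167) and Sfrp4 (0.0532), and fitting the 2 loaded groups alone those of Fzd9 (0.0787), Sfrp1 (0.101) and Wnt9a (0.0708). A pseudocount of 0.1 ended that of Fzd9 (adjusted p = 0.0634), and quantile normalization (0.0627) and no filter (0.0538) that of Sfrp1. Calls were gained by Fzd4 without loaded Nb3 replicate 1 (log2 difference 0.96, adjusted p = 0.0372) and by Fzd5 without loaded Nb3 replicate 3 (log2 difference -1.28, adjusted p = 0.0135), and by Sfrp2 without loaded cpTi replicate 3 (log2 difference 3.79, adjusted p = 0.0234).

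Of the 40 other pathway genes tested, 9 were higher in loaded Nb3 than in loaded cpTi (22.5%, beside 14.7% of all tested genes) and Gsk3a was lower (-0.41; 2.5%, beside 18.9%). The call of Gsk3a was lost without loaded Nb3 replicates 1 or 3, non-loaded Nb3 replicates 1, 2 or 3, loaded cpTi replicates 1, 2 or 3 or non-loaded cpTi replicates 1 or 2 (log2 differences -0.47 to -0.30, adjusted p from 0.0520 to 0.169). The 6 with the smallest p were Ctnnbip1 (1.12), Sostdc1 (1.89), Nkd2 (1.12), Porcn (1.09), the enzyme that attaches the lipid to Wnt ligands, Wls (0.76) and Kremen1 (1.30). Scaled to connective-tissue genes, Ctnnbip1 (0.17), Nkd2 (0.10), Porcn (0.11), Kremen1 (0.32) and Wls (-0.27) were no longer called. The call of Kremen1 was lost without loaded cpTi replicates 1 or 3 (log2 differences 1.16 to 1.21, adjusted p from 0.0526 to 0.0572). Among the 12 tested targets Msx1 was higher (1.39, but 0.34 and not called with that scaling) and Myc lower (-0.59). That was 8.33% on each side, beside 14.7% of all tested genes on the higher side and 18.9% on the lower. Myc was not called without loaded cpTi replicate 3 (log2 difference -0.53, adjusted p = 0.0515).

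Without loading the 2 materials showed no called difference in these genes. In limma 0 of 31 were called, beside 0% of all tested genes, with limma-voom also at 0, and 3 had an unadjusted p under 0.05 (9.68%, beside 3.08% of all genes). These 3 were Dkk2 (0.399, 0.0379 and 0.0923 FPKM in non-loaded Nb3 and 0.720, 0.964 and 0.527 FPKM in non-loaded cpTi, log2 difference -0.57), Fzd2 (-0.86) and Wnt5b (8.37, 6.52 and 6.36 FPKM in non-loaded Nb3 and 4.33, 4.24 and 3.89 FPKM in non-loaded cpTi, 0.64), each with an adjusted p of 1. The groups did not overlap for any of these 3, with Fzd2 at 1.15, 0.993 and 0.924 FPKM in non-loaded Nb3 and 2.12, 3.79 and 2.30 FPKM in non-loaded cpTi. Groups of other genes, Sfrp2 and Sfrp5 among them, were also apart, and the share of such genes over all tested genes was not counted. The median difference was -0.15, and 0.00 over all genes.

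The effect of loading differed between the materials for 13 of the 31 genes, as tested by the interaction, which is the log2 difference with loading beside Nb3 minus that beside cpTi. It was positive in 11 (35.5%, beside 8.42% of all tested genes) and negative in 2 (6.45%, beside 11.8%), so that 20.2% of all genes were called, with a median of 0.62, and -0.02 over all genes. Among the 26 that would also have passed on the other 9 libraries, it was positive in 9 and negative in 2. The share of all genes under that condition was not counted. Scaled to connective-tissue genes, the interaction was positive in 6 (1.54% of all genes) and negative in 9 (53.5%). For Wnt4, loading came with 1.94 beside Nb3 and 0.50 beside cpTi, an interaction of 1.43 (SE 0.24, adjusted p = 0.00279). For Wnt5a the pair was 1.65 and -0.02 (interaction 1.68, adjusted p = 0.00776), and for Wnt6 1.81 and -0.25 (2.06, adjusted p = 0.0152). Wnt9a (2.21) and Wnt2b (1.96) were the other ligands with a positive interaction, and Wnt2 had a negative one (-1.19 beside Nb3 and 0.12 beside cpTi, -1.30, adjusted p = 0.00883).

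Among the receptors Fzd2 (2.41 beside Nb3 and -0.22 beside cpTi, interaction 2.63, adjusted p = 0.00489) and Fzd6 (1.48, adjusted p = 0.00638) had a positive interaction. Among the antagonists these were Dkk2 (1.43), Dkk3 (1.65), Sfrp4 (2.43) and Sfrp5 (2.65, adjusted p = 0.0195). Sfrp2 had the highest estimate but a wide error (4.52, SE 1.56, adjusted p = 0.0669). Lef1 had a negative interaction (-1.43, adjusted p = 0.0339). For Wnt5b, Fzd4, Fzd9 and Sfrp1, which rose with loading beside Nb3, a difference from cpTi was not shown (adjusted p = 0.441, 0.413, 0.0652 and 0.0926).

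The interactions of Dkk2, Fzd2, Sfrp5, Wnt2 and Wnt6 were called under every setting tried, and those of Dkk3, Fzd6, Wnt4 and Wnt5a under every setting but the scaling to connective-tissue genes. Of these genes, Dkk2 and Wnt6 would not have passed the filter on the 9 libraries outside loaded Nb3. For Wnt2, whose interaction was negative, that scaling moved the median of all tested genes the same way, by -1.10. The call of Lef1 was lost when any 1 of loaded Nb3 replicates 1 or 3, non-loaded Nb3 replicates 2 or 3, loaded cpTi replicates 1 or 3 or non-loaded cpTi replicates 1 or 2 was left out (log2 differences -1.48 to -1.17, adjusted p from 0.0520 to 0.0863). That of Sfrp4 was lost without any 1 of loaded Nb3 replicates 1 or 3, non-loaded Nb3 replicates 1 or 2, loaded cpTi replicates 1 or 2 or non-loaded cpTi replicates 2 or 3 (log2 differences 2.05 to 2.46, adjusted p from 0.0535 to 0.0817). For Wnt2b this held for loaded Nb3 replicate 1, non-loaded Nb3 replicates 2 or 3, loaded cpTi replicate 1 or non-loaded cpTi replicate 2 (log2 differences 1.66 to 1.93, adjusted p from 0.0506 to 0.0658), and for Wnt9a for loaded Nb3 replicate 1, non-loaded Nb3 replicate 3 or non-loaded cpTi replicate 2 (log2 differences 1.88 to 2.23, adjusted p from 0.0530 to 0.0601). Other settings also ended a few of these calls, limma-voom that of Wnt2b (adjusted p = 0.0747), scaling by total reads that of Sfrp4 (0.0563), and no filter those of Sfrp4 (0.0617) and Lef1 (0.0619). An interaction was gained by Fzd5 without loaded Nb3 replicate 3 (log2 difference -1.48, adjusted p = 0.0366), by Fzd9 without loaded cpTi replicate 2 or non-loaded cpTi replicate 1 (log2 differences 1.07 to 1.10, adjusted p from 0.0369 to 0.0468), by Sfrp1 without loaded Nb3 replicate 2 (log2 difference 0.98, adjusted p = 0.0332) and by Sfrp2 without loaded Nb3 replicate 2 or loaded cpTi replicate 3 (log2 differences 5.37 to 5.66, adjusted p from 0.0238 to 0.0446).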

How the data were processed

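RNA of 12 libraries was measured, 3 in each of 4 groups, grouped by the treatment label. The authors deposited 1 table of FPKM values for 33801 genes. Per the submitters' processing notes, tools named were HISAT2 2.0.5, CASAVA 1.8, featureCounts 1.5.0-p3, fastp, and also DESeq2 1.20.0. Neither the genome build nor the annotation is given in the sources used here. Low FPKM values were whole multiples of the worth of 1 read for 100% of values (tolerance 0.01 read), so read totals per library could be recovered.

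From these values, log2(FPKM + 1) was tested with limma 3.58.1 (R 4.3.3, statmod 1.5.0) over all 12 libraries, with 1 mean per group, 8 residual degrees of freedom, and trended, robust moderation, on the 15268 genes with at least 1 FPKM in at least 3 libraries. There were 5 contrasts, and p-values were adjusted over all tested genes by the Benjamini-Hochberg method. The script was tested on simulated data. Intervals are 95% limma intervals, and floors are 3 reads. Python 3.11.15 with pandas 2.3.3, matplotlib 3.10.9, numpy 2.4.6 and scipy 1.17.1 produced tables and figures.

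The genes and lists were chosen with earlier results of these data known. Library values are given for genes called in any comparison or with a mean of at least 5 FPKM, group means for genes of special interest to bone, and up to 6 further pathway genes per comparison by smallest p, beside Ctnnb1, Wls, Sost and Rspo3. Symbols were missing for 3241 genes. Alternatives were scaling by total reads, quantile normalization, scaling to connective-tissue genes, a pseudocount of 0.1, no filter, a filter on a mean of 0.5 FPKM, limma-voom on recovered reads, a replicate block, no robust moderation, fitting only the groups of a contrast, and leaving out 1 library at a time.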

Additional observations from a re-analysis of the deposited data

Results flagged for a closer look

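For 20 genes the log2 difference with loading differed between the 2 materials by the interaction test, beside Nb3 minus beside cpTi. They were 13 of the 31 tested genes, 5 of 40 further pathway genes and 2 of 12 targets. The lists of further pathway genes and of targets share some genes. Of all tested genes, 20.2% were called in this test. Among the ligands these were Wnt4 (1.43), Wnt5a (1.68), Wnt6 (2.06), Wnt9a (2.21), Wnt2b (1.96) and, with a negative sign, Wnt2 (-1.30). Among the receptors and antagonists they were Fzd2 (2.63), Fzd6 (1.48), Dkk2 (1.43), Dkk3 (1.65), Sfrp4 (2.43) and Sfrp5 (2.65). Lef1 had a negative interaction (-1.43). Those of Lef1, Sfrp4, Wnt2b and Wnt9a depended on the libraries and settings named with them in the report. Dkk2 and Wnt6 would not have passed the filter on the 9 libraries outside loaded Nb3.

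Of the other pathway genes, Sostdc1 (2.56, adjusted p = 0.00400), Nkd2 (1.58, adjusted p = 0.00719), Wls (0.90, adjusted p = 0.0284), Ctnnbip1 (0.89, adjusted p = 0.0336) and Kremen1 (1.60, adjusted p = 0.0396) showed such a difference. All 5 were positive (12.5% of 40 tested, beside 8.42% of all tested genes), and 0 were negative (beside 11.8%). Scaled to connective-tissue genes, Wls turned to -0.40 and Ctnnbip1 to -0.33, and Nkd2 (0.30, adjusted p = 0.492) and Kremen1 (0.38, adjusted p = 0.384) were no longer called. No filter also ended the calls of Wls (adjusted p = 0.0504), Ctnnbip1 (0.0560) and Kremen1 (0.0717), limma-voom those of Ctnnbip1 (0.0830) and Kremen1 (0.0549), and scaling by total reads that of Wls (0.0629). The call of Wls was lost without loaded Nb3 replicate 2, non-loaded Nb3 replicates 2 or 3, loaded cpTi replicates 1 or 3 or non-loaded cpTi replicates 2 or 3 (log2 differences 0.79 to 0.89, adjusted p from 0.0525 to 0.0735). That of Ctnnbip1 was lost without non-loaded Nb3 replicates 2 or 3, loaded cpTi replicates 1 or 2 or non-loaded cpTi replicates 2 or 3 (log2 differences 0.82 to 0.90, adjusted p from 0.0576 to 0.0827), and that of Kremen1 without loaded Nb3 replicate 2, non-loaded Nb3 replicates 2 or 3, loaded cpTi replicates 1 or 3 or non-loaded cpTi replicates 2 or 3 (log2 differences 1.29 to 1.59, adjusted p from 0.0700 to 0.0949).

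Of the 12 tested targets, Ccnd1 (1.44, adjusted p = 0.0177) and Msx1 (1.84, adjusted p = 0.0206) showed it. Both were positive (16.7%, beside 8.42% of all tested genes), and 0 targets were negative (beside 11.8%). Neither was called when scaled to connective-tissue genes (0.15 and 0.54). Ccnd1 stood at 22.3, 24.6 and 28.8 FPKM in loaded Nb3 and 12.8, 5.62 and 6.84 FPKM in non-loaded Nb3, and at 17.3, 12.8 and 15.7 FPKM in loaded cpTi and 11.0, 17.1 and 14.5 FPKM in non-loaded cpTi. The call of Msx1 was lost without non-loaded Nb3 replicate 3 or non-loaded cpTi replicate 2 (log2 differences 1.69 to 1.71, adjusted p from 0.0538 to 0.0554).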

How the results depend on the processing

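Of 5341 values of single genes under the alternatives, over 245 pairs of a gene and a comparison, 5104 kept their direction and side of the threshold, 159 lost the call, 50 gained one and 28 reversed; changes of sign of values called under neither setting were not counted. All 28 reversals came from scaling to connective-tissue genes. They were, with loading beside Nb3, Ccnd1 -0.17, Ctnnb1 -1.13, Ctnnbip1 -0.28, Fzd3 -0.96, Fzd4 -0.62, Fzd7 -1.25, Fzd8 -1.21, Lrp5 -1.31, Lrp6 -1.57, Nkd2 -0.35, Porcn -0.60, Sfrp1 -0.61, Tcf7 -0.70, Twist1 -0.34, Wls -0.59, Wnt10b -1.27 and Wnt5b -0.80. Under loading, between materials, they were Ctnnb1 -0.92, Fzd8 -0.79, Lrp5 -1.01, Sfrp1 -0.38, Tcf7 -0.90 and Wls -0.27, and in the interaction Ctnnb1 -1.34, Ctnnbip1 -0.33, Fzd7 -0.97, Lrp6 -1.18 and Wls -0.40. That scaling gave 6 higher and 11 lower of the 31 with loading beside Nb3 (median -0.40, 12349 genes called), 2 and 8 between materials under loading (0.067, 8770 genes) and 6 and 9 in the interaction (-0.27, 8403 genes). It called 6 genes with loading beside cpTi (median -0.28) and 4 between materials without loading. No filter gave a median of 0.58 with loading beside Nb3, 2 genes called beside cpTi, 1 gene between materials without loading and 1 lower member in the interaction. Quantile normalization called 3 genes with loading beside cpTi, and a pseudocount of 0.1, limma-voom, the replicate block and the compared groups alone called 0, against 1. Between materials under loading the median was 1.15 with a pseudocount of 0.1 and 1.16 with limma-voom, and in the interaction 0.90 with limma-voom; the cause was not tested. The compared groups alone give no interaction. On recovered reads limma-voom called 7038 genes with loading beside Nb3, 5201 between materials under loading and 3063 in the interaction, against 6996, 5123 and 3089.

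Same-numbered libraries were not paired by the labels, and their deviations correlated at -0.252 to 0.115, with 1 of 12 pairs over 0.1. With the replicate block 15 rose and 2 fell with loading beside Nb3 (6568 genes called), 13 and 2 differed between materials under loading (4591 genes), and 11 and 1 in the interaction. The block ended the calls of Fzd4 with loading beside Nb3 (adjusted p = 0.0633), of Fzd9 (0.0584) and Gsk3a (0.0681) between materials under loading, and of Lef1 (0.0636) and Ctnnbip1 (0.0544) in the interaction, and Myc was called lower with loading beside Nb3 (0.0410). Leaving out 1 library at a time left 5599 to 6948 genes called with loading beside Nb3, 0 to 4 beside cpTi, 3429 to 5152 between materials under loading, 0 to 4 without loading and 1986 to 3159 in the interaction. Medians of the 31 genes were then 0.78 to 1.10, -0.08 to 0.20, 0.48 to 0.81, -0.23 to -0.09 and 0.45 to 0.98. Higher members numbered 15 to 16 with loading beside Nb3, 8 to 14 between materials under loading and 8 to 13 in the interaction, and lower ones 2 to 3, 2 to 3 and 1 to 2. With 3 libraries a group, changes of genes that stayed under 1 FPKM were not tested.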
